A study of Mus musculus with 3 samples.

Results

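The genes described here break down stored triglyceride, or handle the glycerol released from it, and were read on 3 mouse arrays: Pnpla2, Pnpla3, Lipe, Mgll, Abhd5, G0s2, Ces1d, Aqp7 and Gpd2. They were chosen by gene symbol, as probe sets that the platform's probe table assigns to 1 of these 9 symbols. Each symbol had 1 probe set, so the set holds 9 of the 19938 genes measured, or 9 of 28943 probe sets. The study named its samples DiBA, BA and mouse fibroblasts, with 1 array each, and its title speaks of directly converted brown adipocytes. DiBA and the fibroblasts are labelled as cultivated cells. BA is labelled as brown adipose tissue, while its description calls it cultivated cells, so the labels do not settle whether BA was tissue or cultured cells. The labels list no treatment, and strain, genotype, age, passage and the factors used for conversion are not stated there.

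In fat cells, triglyceride in the lipid droplet is cut stepwise. Adipose triglyceride lipase, encoded by Pnpla2, removes the first fatty acid, hormone-sensitive lipase, encoded by Lipe, cuts the resulting diacylglycerol, and monoglyceride lipase, encoded by Mgll, releases the last fatty acid and glycerol. In brown fat, the released fatty acids fuel mitochondrial oxidation and activate uncoupling protein 1. Glycerol leaves the cell through aquaglyceroporins such as Aqp7, and mitochondrial glycerol-3-phosphate dehydrogenase, encoded by Gpd2, passes electrons from glycerol phosphate to the respiratory chain.

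The first lipase, its protein activator, its protein inhibitor and the last enzyme of the chain are shown by the 250 bases before an annotated transcription start. Their differences, described below, include the smallest of the set but not the largest. The sequences are from RefSeq, build GRCm38.p6, written 5′ to 3′ on the gene's strand. Capitals mark matches on either strand to GGGCGG (the GC box), TGACG (the core of the cyclic AMP response element), AGGTCA (the nuclear receptor half-site), CACGTG (an E box) or TTGCNNAA (a C/EBP-type sequence). TATAAA (the TATA box) was searched as well.
Pnpla2 (chr7:141454938-141455187, plus strand): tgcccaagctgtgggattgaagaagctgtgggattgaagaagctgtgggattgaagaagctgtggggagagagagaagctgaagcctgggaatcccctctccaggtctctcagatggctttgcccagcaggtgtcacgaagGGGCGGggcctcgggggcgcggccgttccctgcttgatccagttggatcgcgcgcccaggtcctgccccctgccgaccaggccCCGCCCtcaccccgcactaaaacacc
Abhd5 (chr9:122351366-122351615, plus strand): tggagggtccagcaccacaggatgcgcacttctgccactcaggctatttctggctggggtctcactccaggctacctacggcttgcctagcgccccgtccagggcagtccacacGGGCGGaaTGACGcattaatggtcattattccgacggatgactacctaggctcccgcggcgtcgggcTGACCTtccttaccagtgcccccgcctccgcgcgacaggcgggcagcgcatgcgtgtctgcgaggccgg
G0s2 (chr1:193273189-193273438, minus strand): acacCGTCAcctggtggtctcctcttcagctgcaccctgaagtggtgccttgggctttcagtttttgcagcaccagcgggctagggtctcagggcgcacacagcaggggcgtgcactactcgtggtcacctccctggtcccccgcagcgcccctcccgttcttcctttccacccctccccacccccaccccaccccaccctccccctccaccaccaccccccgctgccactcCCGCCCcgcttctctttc
Mgll (chr6:88724162-88724411, plus strand): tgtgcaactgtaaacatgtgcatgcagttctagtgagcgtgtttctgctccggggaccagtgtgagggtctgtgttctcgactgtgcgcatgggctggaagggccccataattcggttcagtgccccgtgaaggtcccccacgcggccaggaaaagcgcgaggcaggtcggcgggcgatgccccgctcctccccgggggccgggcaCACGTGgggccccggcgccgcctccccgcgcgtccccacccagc
Pnpla2 had 2 matches to the GC box, and Abhd5 and G0s2 had 1 each. The half-site in Abhd5 lay 64 to 69 bases before the start, and its TGACG lay 124 to 128 bases before it. The E box in Mgll lay 39 to 44 bases before the start.

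The promoter table held 12 starts of 8 members, namely all but Ces1d. At least 1 GC box was found at 7 of these 12 starts, against 32.7% of 32851 promoter windows of the same length. AGGTCA was found at 3 of 12 starts, against 14.0% of all windows, and TGACG at 3 of 12, against 17.8%. The E box was found at 2 of 12 starts, against 6.02% of all windows, and TTGCNNAA at 1 of 12, against 9.56%. TATAAA was found at 0 of 12, against 12.4%. Starts of 1 gene can overlap, as the windows of Aqp7 do, and a match describes letters in this window only. The promoter windows differed in base composition: the windows of Aqp7 held 0 and 2 CpG dinucleotides, while those printed held 12 for Pnpla2, 22 for Abhd5, 11 for G0s2 and 23 for Mgll, beside a median of 6 over all windows. Windows not printed held 18 and 1 for Lipe, 5 and 26 for Gpd2 and 11 for Pnpla3. The other start of Mgll held 40 and a GC box, which the printed start lacks.

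All 9 genes were brighter in DiBA and in BA than in fibroblasts, and DiBA and BA lay close together. Intensities are the deposited linear values. Differences are log2(intensity + 1) in the first named sample minus the second, so the fold of a dim gene is understated by the added 1. A gene counts as higher or lower where it differed by at least 2-fold and the brighter of both arrays reached 69.2, the median intensity of the table. With 1 array per group there is no spread between replicates and no test, and each difference describes these arrays only. In such bulk RNA, fewer cells of a type and less RNA per cell cannot be told apart.

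**Figure D1:**
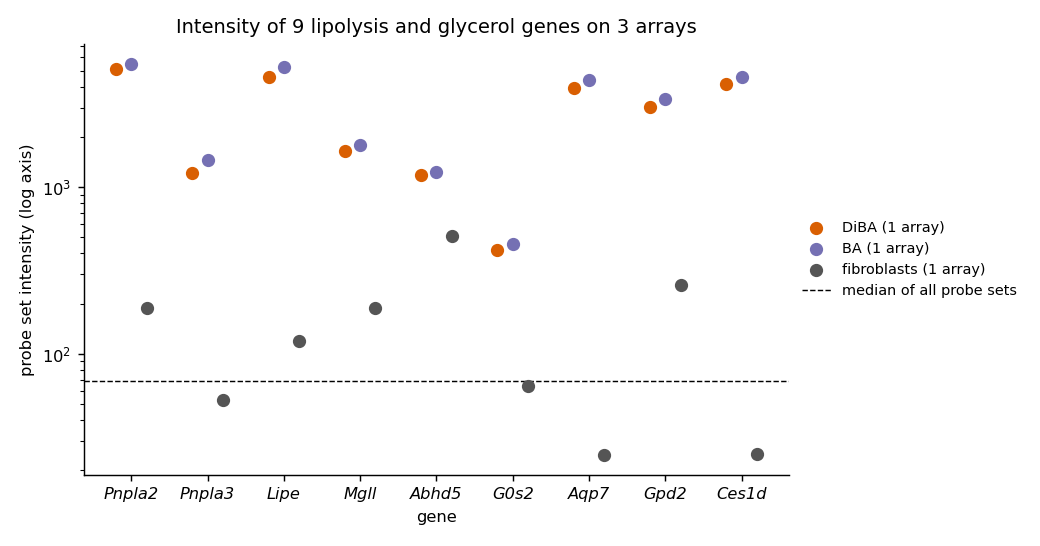
Intensity of each of the 9 genes (log axis) on the DiBA, BA and fibroblast arrays, 1 point per array, with a dashed line at 69.2, the median intensity of the table. For each gene the DiBA and BA points lie close together and above the fibroblast point, which falls under the line for Pnpla3, G0s2, Aqp7 and Ces1d.

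For DiBA against fibroblasts, 9 of 9 genes were at least 2-fold higher and 0 lower, where 8.54% of all genes measured were higher and 7.67% lower. For BA against fibroblasts, 9 of 9 were higher and 0 lower, where 9.51% of all genes were higher and 9.59% lower. The median difference of the 9 genes was 4.50 (log2) in DiBA and 4.75 in BA, while the median over all genes was 0 in both comparisons. That 0 falls among exact ties, which 33.4% of all probe sets show on all 3 arrays. These comparisons share the fibroblast array. In fibroblasts, 4 of the 9 genes lay under 69.2, so these 4 passed the level minimum only through the array where they were bright. The 9 symbols were picked as adipocyte lipolysis genes with earlier results of these arrays known, so their common direction is given as a description.

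The enzymes of the 3 successive cuts were each several-fold higher in DiBA and BA than in fibroblasts. Pnpla2, the lipase of the first step, had an intensity of 5125 in DiBA and 5507 in BA, against 189 in fibroblasts. The difference was 4.75 (log2) for DiBA and 4.86 for BA, or 27.0-fold and 29.0-fold. Lipe, the lipase of the second step, had 4588 in DiBA and 5245 in BA, against 120 in fibroblasts. The difference was 5.25 for DiBA and 5.44 for BA, or 38.0-fold and 43.4-fold, a wider gap to fibroblasts than for the first step. Mgll, which ends the chain and also degrades the endocannabinoid 2-arachidonoylglycerol, had 1645 in DiBA and 1778 in BA, against 188 in fibroblasts. Its difference of 3.12 for DiBA and 3.24 for BA, or 8.72-fold and 9.42-fold, was the smallest of the 3 enzymes. All 3 lay above 69.2 in fibroblasts, so lifting dim values to that level leaves their folds as they are.

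The protein regulators of the first lipase differed less. Abhd5 encodes the activator protein also called CGI-58, which perilipin holds at the droplet until lipolysis is stimulated. It had 1175 in DiBA and 1226 in BA, against 507 in fibroblasts, so that its transcript was read well over 69.2 in all 3 samples. Its difference was 1.21 in DiBA and 1.27 in BA, or 2.31-fold and 2.42-fold, the smallest among the 9 genes. At a 4-fold threshold it was the 1 member not called in either comparison. G0s2 encodes a small protein that binds and inhibits the first lipase. It had 420 in DiBA and 459 in BA, against 64.0 in fibroblasts, a difference of 2.69 in DiBA and 2.82 in BA. The folds were 6.47 and 7.08, which lie between those of the activator and of the lipase itself. The order of the differences, lipase, then inhibitor, then activator, was the same in DiBA and in BA, which share the fibroblast array.

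Both other lipases of the set were also higher. Pnpla3 encodes adiponutrin, a relative of the first lipase with triglyceride hydrolase activity in vitro. It had 1221 in DiBA and 1448 in BA, against 52.9 in fibroblasts, or 22.7-fold and 26.9-fold. Ces1d encodes a carboxylesterase also called triacylglycerol hydrolase, found on lipid droplets of mouse adipocytes. It had 4161 in DiBA and 4572 in BA, against 24.99 in fibroblasts. Its difference was 7.32 in DiBA and 7.46 in BA, or 160.2-fold and 175.9-fold, the largest of the 9, and it ranked 8 of 19938 genes in each comparison, or 14 for DiBA and 15 for BA with dim values lifted to 69.2, a ranking added after seeing the data. With dim values so lifted, the folds of Ces1d were 59.3 for DiBA and 65.2 for BA, and those of Pnpla3 17.4 and 20.6.

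The glycerol genes stood at both a very wide and a moderate difference. Aqp7, the glycerol channel of the adipocyte membrane, had 3952 in DiBA and 4379 in BA, against 24.7 in fibroblasts. Its difference was 7.27 in DiBA and 7.41 in BA, or 154.0-fold and 170.6-fold, and it ranked 9 in each comparison. Raising dim intensities to 69.2 brought these folds to 56.3 and 62.4, and the rank to 17 in each. Gpd2, the mitochondrial arm of the glycerol phosphate shuttle, had 3040 in DiBA and 3378 in BA, against 260 in fibroblasts. The difference was 3.54 in DiBA and 3.70 in BA, or 11.7-fold and 13.0-fold, and it too was read over 69.2 on all 3 arrays.

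**Figure D2:**
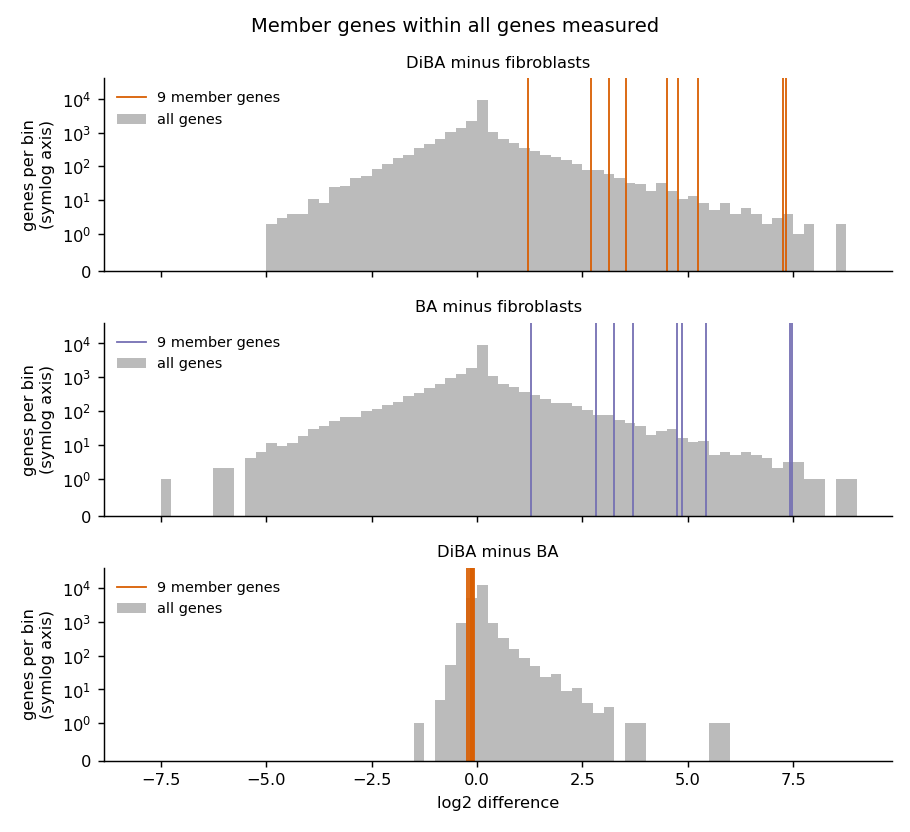
Number of genes per bin of log2 difference (symlog vertical axis) for DiBA minus fibroblasts, BA minus fibroblasts and DiBA minus BA, with a coloured line at each of the 9 genes. In the upper panels the lines run from 1.21 and 1.27 to 7.32 and 7.46 on the side of higher values; in the lowest panel they stand together just under 0.

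Between DiBA and BA, 0 of 9 genes were at least 2-fold higher or lower, where 0.973% of all genes were higher and 0% lower. All 9 were slightly dimmer in DiBA than in BA, with differences from -0.25 to -0.06 (log2) and a median of -0.14. In linear intensity, DiBA held 84.4% to 95.8% of the BA value, with a median of 91.0%. Pnpla3 had the widest gap, at -0.25 with 84.4% of BA, followed by Lipe at -0.19 with 87.5%. Abhd5 had the narrowest, at -0.06 with 95.8%. Among the 11076 genes that passed the level minimum in this comparison, the middle 90% of differences ran from -0.28 to 0.50, and 41.3% of these genes were dimmer in DiBA, 32.6% brighter and 26.2% exactly tied. The 9 differences lay inside that range. Without replicate arrays, the order of DiBA and BA is not established for any of the 9 genes.

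**Figure D3:**
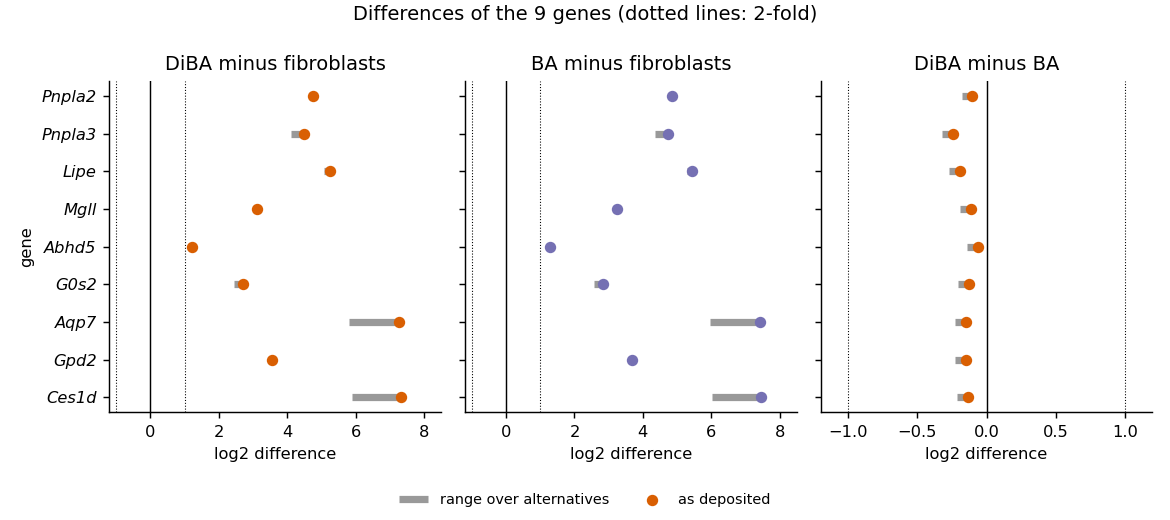
Log2 difference of each of the 9 genes in DiBA minus fibroblasts, BA minus fibroblasts and DiBA minus BA (points), with grey bars for the range over alternative scalings, pseudocounts and the raised floor, and dotted lines at 2-fold. Every bar lies beyond 2-fold against fibroblasts and between -0.32 and -0.06 for DiBA minus BA; the bars of Aqp7 and Ces1d are the longest.

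Within their own gene families, the members were among a few genes that differed. Of 5 other patatin-like genes measured, 1 was higher in DiBA and BA than in fibroblasts: Pnpla8, a calcium-independent phospholipase, at 603 in DiBA and 652 in BA, against 95.7 in fibroblasts. Its difference was 2.64 in DiBA and 2.75 in BA. Pnpla7, a lysophospholipase named after its values were seen, stayed just short of 2-fold, at 0.91 in DiBA and 0.95 in BA. The remaining 3 carried exactly equal deposited values on all 3 arrays, as 33.4% of all probe sets do, and how such ties arose is not stated in the labels.

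Of 15 other carboxylesterase genes measured, 1 was higher, Ces1f, another esterase of the same gene cluster, at 824 in DiBA and 961 in BA, against 21.5 in fibroblasts. Its difference was 5.19 in DiBA and 5.42 in BA. Ces2g, next by size, had 63.7 in DiBA and 74.4 in BA, against 39.9 in fibroblasts, less than 2-fold. A further 13 of the 15 lay under 69.2 on all 3 arrays. Ces1d and Ces1f are related genes, and how far the probe set of one reads the transcript of the other was not tested.

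Of 11 other aquaporin genes, 2 were higher. Aqp11, an aquaporin of intracellular membranes, had 441 in DiBA and 533 in BA, against 17.9 in fibroblasts, a difference of 4.55 in DiBA and 4.82 in BA. Aqp1, a water channel that endothelial cells also carry, had 684 in DiBA and 899 in BA, against 162 in fibroblasts, a difference of 2.07 in DiBA and 2.46 in BA. The other aquaglyceroporin genes Aqp3 and Aqp9, named after their values were seen, carried exactly tied values of 54.8 and 30.4 on every array, under the median of all probe sets. As for the tied patatin-like genes, equal deposited values are not read as equal levels.

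**Figure D4:**
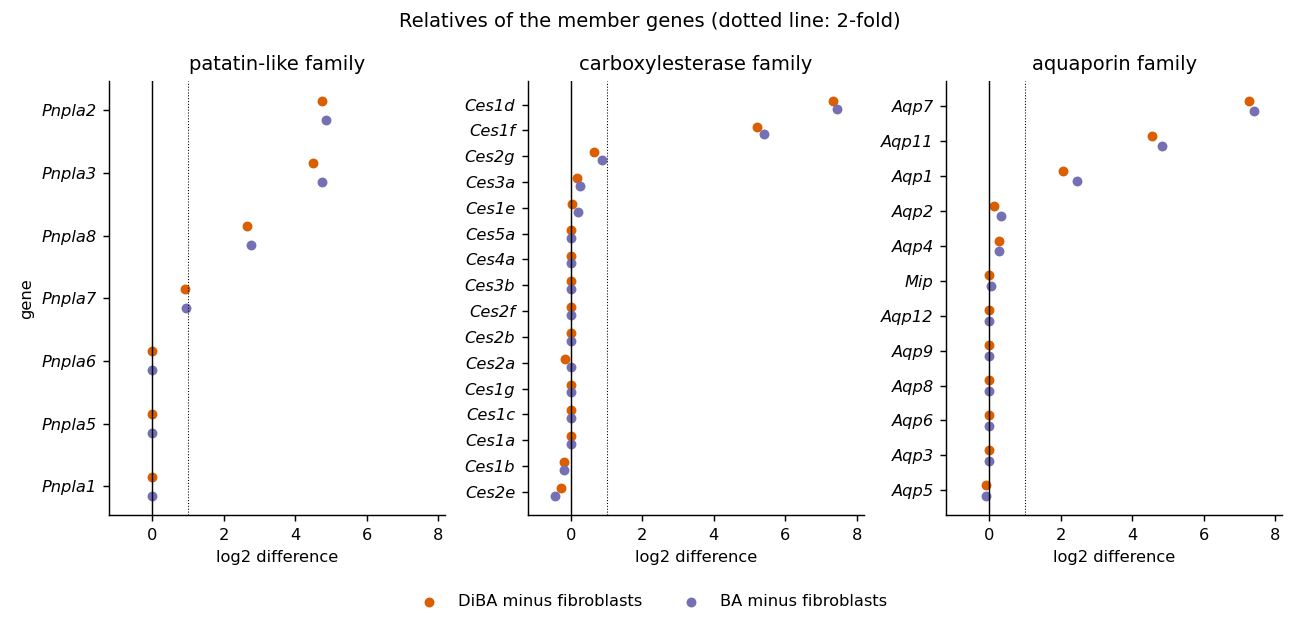
Log2 difference against fibroblasts for 7 patatin-like, 16 carboxylesterase and 12 aquaporin genes, in DiBA (orange) and BA (violet), with a dotted line at 2-fold. Pnpla2, Pnpla3 and Pnpla8, Ces1d and Ces1f, and Aqp7, Aqp11 and Aqp1 lie beyond the line; most other carboxylesterase and aquaporin genes lie at or near 0, while Pnpla7 lies just short of the line.

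The genes that signal to the lipases were a mixed group. Of 20 measured genes of receptors, adenylyl cyclases, kinases and phosphodiesterases, 8 were higher and 2 lower in DiBA than in fibroblasts, with a median of 0.53, and 8 were higher and 2 lower in BA, with a median of 0.54. Pde3b, the phosphodiesterase through which insulin restrains lipolysis, had 1498 in DiBA and 1687 in BA, against 120 in fibroblasts, a difference of 3.63 and 3.80. Hcar1, the lactate receptor that dampens lipolysis, differed by 3.09 in DiBA and 3.50 in BA, with a fibroblast intensity of 42.5, under 69.2. Prkar2b, the regulatory subunit of protein kinase A typical of fat, differed by 3.15 and 3.16. Both lower genes, named after their values were seen, were Prkar2a at -1.12 in DiBA and -1.32 in BA, another regulatory subunit, and Prkg1 at -2.08 and -2.24, a cyclic GMP dependent kinase. A further 7 genes of that list, the 3 beta-adrenergic receptors among them, were not analysed here.

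Most transcripts of lipid droplet proteins showed the same direction as those of the lipases that work on the droplet surface. Of 17 genes of droplet coats and lipase partners, 12 were higher and 0 lower in each comparison with fibroblasts, with a median of 1.78 in DiBA and 2.13 in BA. The widest differences belonged to Cidea at 7.48 in DiBA and 7.60 in BA, Fabp4 at 7.05 and 7.03, and Cidec at 6.33 and 6.47. Their fibroblast intensities were 20.4, 52.1 and 47.7, under 69.2, so the size of these differences depends on dim values. Cidea and Cidec encode proteins that fuse droplets, and Fabp4 a fatty acid carrier that binds hormone-sensitive lipase. Of 13 other neutral lipases, 4 were higher and 1 lower in DiBA, and 5 higher and 1 lower in BA. Lpl, the lipase that works on circulating lipoproteins, differed by 4.45 in DiBA and 4.52 in BA. Abhd6, a monoacylglycerol lipase, differed by 2.04 and 2.42, and Ddhd2, a triglyceride and phospholipid hydrolase, by 1.97 and 2.13. The lower gene, named after its value was seen, was the endothelial lipase gene Lipg, at -1.71 in DiBA and -1.31 in BA.

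Some of the genes that make glycerol phosphate, and most that put fatty acids back onto it, were higher as well. Among 8 measured genes of glycerol and glycerol phosphate metabolism other than Aqp7 and Gpd2, 2 were higher and 1 lower in DiBA, and 3 higher and 1 lower in BA. The glycerol kinase gene Gk, also of that list, was not analysed here. Gpd1, the cytosolic partner of Gpd2 in the shuttle, had 7851 in DiBA and 8442 in BA, against 52.6 in fibroblasts, a difference of 7.20 and 7.30. Pck1, an enzyme of glyceroneogenesis, had 4129 in DiBA and 4738 in BA, against 45.9 in fibroblasts, a difference of 6.46 and 6.66. The lower gene, named after its value was seen, was its mitochondrial isoenzyme Pck2, at -1.34 in DiBA and -1.25 in BA.

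Of 16 re-esterification genes, 10 were higher and 0 lower in each comparison with fibroblasts, with a median of 1.67 in DiBA and 1.88 in BA. Dgat2, which adds the last fatty acid to diacylglycerol, differed by 6.38 in DiBA and 6.43 in BA. Lpin1, a phosphatidate phosphatase, differed by 3.27 and 3.57, and Agpat2, an acyltransferase of the same pathway, by 3.28 and 3.46. A further 3 of the 16 genes had values below those of fibroblasts in each comparison, short of 2-fold. Acsl1 and Acsl3, also of that list, were not analysed here.

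**Figure D5:**
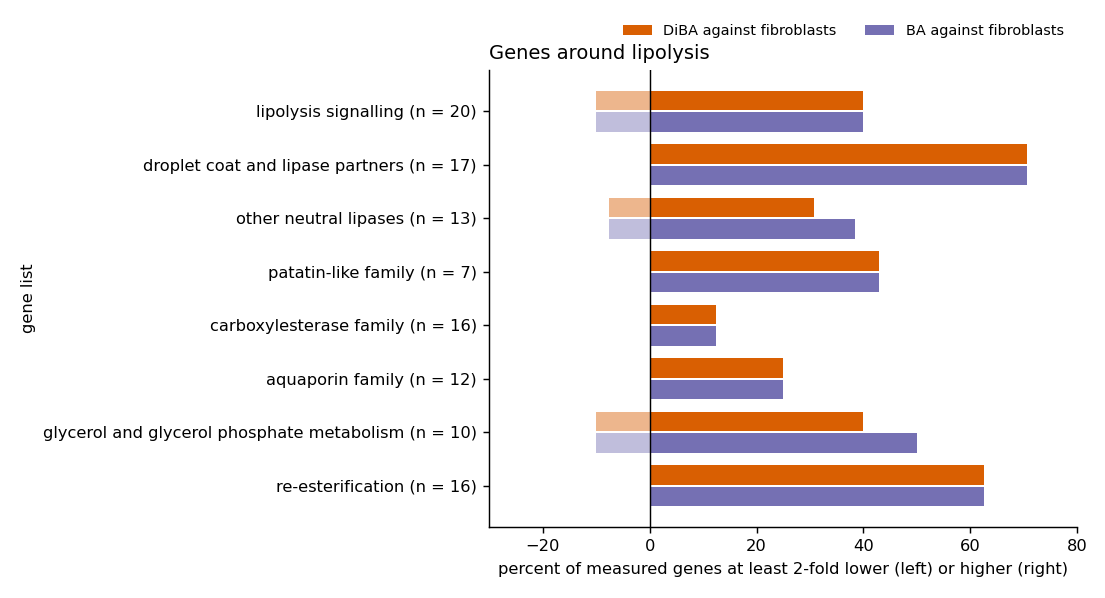
Percent of the measured genes of each list that were at least 2-fold higher (right) or lower (left, pale) than in fibroblasts, for DiBA (orange) and BA (violet). Droplet coat genes, with 12 of 17 higher, and re-esterification genes, with 10 of 16 higher, have the longest bars; the families and the glycerol list include members of the set.

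By likeness, each member was set beside the genes whose pair of differences (DiBA minus fibroblasts and BA minus fibroblasts) lay nearest, as a Euclidean distance in log2 units among 11261 candidate genes over 3 arrays. Both differences subtract the same fibroblast value, so the distances were also taken with dim values lifted to 69.2, an alternative chosen after seeing the data. For Abhd5 the nearest were Cd151, a tetraspanin, and Ube2b, a ubiquitin-conjugating enzyme, both at 0.01, and for Mgll they were Ndufb8, a subunit of respiratory complex I, at 0.02 and Cd300lg at 0.03. These 4 distances were the same with dim values lifted, as was that of Ech1, an enzyme of fatty acid oxidation, to Gpd2, at 0.04. In each other pair the member, its neighbour or both lay under 69.2 in fibroblasts, and the distance grew with dim values lifted. Ces1d and Aqp7, 0.07 apart, were each other's nearest gene, but with dim values lifted 3 other genes lay nearer to each. Gpd1, the next to Aqp7 at 0.13, then lay 1.37 away, and Thrsp, the next to Ces1d at 0.09, lay 0.39 away. Pgam2 and Gstm1, both 0.01 from G0s2, lay 0.16 away after the change. The same change moved Acp5 and Clic5 from 0.05 to 0.57 and 0.88 for Pnpla2, Ndrg2 and Plaat3 from 0.03 to 0.54 and 0.34 for Pnpla3, Acacb and Aoc3 from 0.05 to 0.33 and 0.50 for Lipe, and Pex11a from 0.04 to 0.26 for Gpd2.

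The labelled cell types were checked against marker genes. Several adipocyte and brown adipocyte markers, Fabp4, Cidec and Cidea among them, also belong to the droplet list above, so those counts overlap. Of 5 adipocyte markers outside the set, 5 were higher than in fibroblasts in both DiBA and BA, and so were 6 of 6 brown adipocyte markers, of which 4 were at least 2-fold higher with dim values lifted to 69.2. Of 9 fibroblast markers, 5 were lower and 1 higher in DiBA, and 6 lower and 1 higher in BA. Markers of other cell types moved with the 9 genes. Of 8 skeletal muscle markers, 8 were higher in DiBA and 8 in BA than in fibroblasts, and their summed intensity was 12078 in DiBA and 13668 in BA, against 1043 in fibroblasts. Of 8 endothelial markers, 8 were higher in each, with sums of 3080 in DiBA and 3677 in BA, against 520 in fibroblasts. Of 8 macrophage markers, 7 were higher in DiBA and 6 in BA, with sums of 3346 in DiBA and 3145 in BA, against 1073 in fibroblasts. With dim values lifted to 69.2, the counts in DiBA and BA were 8 and 8 for skeletal muscle, 7 and 8 for endothelial and 6 and 5 for macrophage markers. The 1 erythrocyte marker measured had 260 in DiBA and 340 in BA, against 26.0 in fibroblasts. The part of these other cell types in the differences of the 9 genes was not tested. Of 4 hepatocyte markers, 4 lay under 69.2 on all 3 arrays, and 3 of them carried exactly tied values. Liver also expresses Ces1d, and which cells gave its signal was not tested.

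The small gap between DiBA and BA was likewise not limited to the lipolysis genes. DiBA held 86.0% to 92.1% of the BA intensity for the 8 skeletal muscle markers and 77.6% to 92.6% for the 8 endothelial markers, all 16 being dimmer in DiBA. For the 5 adipocyte markers outside the set the share was 90.6% to 101.1%, with 4 dimmer, and for the 6 brown adipocyte markers from 77.1% up to an exact tie, with 5 dimmer. For the 8 macrophage markers it was 85.4% to 147.1%, with 4 dimmer. Fibroblast markers ran the other way, with 8 of 9 brighter in DiBA than in BA. Whether these shifts bear on the gap in the 9 genes was not tested.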

How the data were processed

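Total RNA from 3 samples was labelled with biotin and read on 3 single-colour Affymetrix arrays, 1 per group. The authors deposited 1 linear intensity per probe set and array, for which the submitters' processing notes name Affymetrix Expression Console. The version, summarization and normalization behind the values are not stated in the labels. Array medians of 71.5 (DiBA), 67.7 (BA) and 67.8 (fibroblasts) lay close, so the values were taken as normalized. The number of arrays limits the precision.

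Of 28943 probe sets, 21789 had 1 gene symbol, 1621 had several and 5533 were not listed. Those with 1 symbol gave 19938 genes, and log2 values of a gene's probe sets were averaged after adding a pseudocount of 1. Steps ran in Python 3.11.15 with pandas 2.3.3 and numpy 2.4.6 and were tested on simulated data. Members and lists were chosen with earlier results of these data known. Named genes are the 9 members, in each list the 3 measured genes with the largest difference between BA and fibroblasts, and the 2 nearest genes of a member; others are marked as named after their values were seen. Alternatives covered centring, quantile normalization, a raised floor, a pseudocount of 16, other level minimums, the highest probe set and other fold thresholds.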

Additional observations from a re-analysis of the deposited data

How the results depend on the processing

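Each of the 9 genes kept its direction and its side of the 2-fold threshold in every comparison under centring, quantile normalization, the raised floor, a pseudocount of 16 and the highest probe set, 135 of 135 recomputed differences. Part of these could not change. Each member has 1 probe set, so taking the highest probe set returned the main values. The raised floor left all DiBA minus BA differences as they were, and those against fibroblasts of the 5 members at or above 69.2 there. Against fibroblasts, 9 of 9 genes were higher under these settings and under no level minimum, a 75th percentile minimum and a 1.5-fold threshold, and 8 of 9 at 4-fold, without Abhd5. Dropping the level minimum and using 1.5-fold only loosen the rule, so a gene already called could not be lost there. The median of the 9 genes ran from 4.12 to 4.50 for DiBA, from 4.37 to 4.75 for BA, and from -0.21 to -0.14 for DiBA minus BA. The count over all genes moved more: between DiBA and BA, 194 genes were at least 2-fold higher, against 76 with the 75th percentile minimum, 456 at 1.5-fold and 33 at 4-fold. Against fibroblasts, a 4-fold threshold gave 731 higher and 372 lower genes for DiBA (1703 and 1530 at 2-fold) and 862 and 674 for BA (1897 and 1913), and 1.5-fold gave 2747 lower for DiBA and 3049 lower for BA. The folds of Aqp7 and Ces1d depend on fibroblast intensities near the dim end: with the raised floor they were 2.73 and 2.70 times smaller. No paired analysis was possible because each group holds 1 array. No result could be recomputed with an array left out, and the arrays hold no measure of signal over background here.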
